A study of Mus musculus with 6 samples.

Results

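The Lin28, Igf2bp and Hmga families hold 7 genes, Lin28a, Lin28b, Igf2bp1, Igf2bp2, Igf2bp3, Hmga1 and Hmga2, which were taken by gene symbol from the table of expression values and make up 7 of its 44804 usable rows. They were chosen by their FPKM in these same 6 cells, CTC against tumor cell, so that contrast is described for them and not tested. The table covers 6 mouse cells. The 3 circulating tumor cells (CTCs), tumor cells taken from blood, came from mice 1157, 1168 and PDGF1, and 1 tumor cell came from each of the same mice, titled GBM, the common abbreviation for glioblastoma. The series' design counts all 6 as single cells, although the tumor cells' own source label lacks that word. Genotype, strain, age, treatment and the way the tumors arose are not given in the sources used here.

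These genes are called oncofetal because they are active in embryonic tissue, mostly silent in the adult, and active again in some tumors. Lin28a and Lin28b are RNA-binding proteins that stop the maturation of the microRNA let-7. The Igf2bp proteins bind mRNAs, Igf2 among them, and steer their stability, transport and translation, while the Hmga proteins bend AT-rich DNA and change how chromatin is packed. Mature let-7 in turn represses mRNAs of all 3 families, so that Lin28 and let-7 hold each other in check.

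Because let-7 links the 3 families, its sequence and a match from each of the 7 mRNAs are shown first. All 9 mature let-7 family sequences of RefSeq (GRCm38.p6), which come from 11 genes, share 1 seed, the bases from position 2 to 8 that pair with the target. A few of them stand for the family here, with the seed in capitals.
mmu-let-7a-5p: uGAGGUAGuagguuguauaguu
mmu-let-7e-5p: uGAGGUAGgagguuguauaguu
mmu-let-7g-5p: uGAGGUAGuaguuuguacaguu
mmu-miR-98-5p: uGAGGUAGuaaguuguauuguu

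The complement of that seed, CTACCTC, was searched on the transcript strand in the annotated 3′ UTR of each gene (GENCODE M21, GRCm38), as the only motif. All 7 genes held at least 1 match, 17 in all. Matches numbered 2 in Lin28a, 4 in Lin28b, 4 in Igf2bp1, 1 in Igf2bp2, 1 in Igf2bp3, 1 in Hmga1 and 4 in Hmga2. Over 20709 protein-coding genes, 8.19% held a match. Long 3′ UTRs hold more by length alone: among genes whose 3′ UTR was within 25% of the same length, the share with a match was 14.3% for Lin28a, 23.6% for Lin28b, 31.7% for Igf2bp1, 11.0% for Igf2bp2, 12.3% for Igf2bp3, 7.86% for Hmga1 and 15.6% for Hmga2. As many matches as in Hmga2 were held by 2 of 2568 such genes, as many as in Lin28b by 3 of 1477, and as many as in Igf2bp1 by 1 of 640. These families are known let-7 targets, so the counts describe how they are picked, and a match is not a site shown to be used. For each gene a match is printed, with the match in capitals. It is the first that is followed by A (a base known to strengthen microRNA sites) or else the first. The lines run 5′ to 3′ on the minus strand, except for Hmga1, on the plus strand.
Lin28a, chr4:134005189-134005218: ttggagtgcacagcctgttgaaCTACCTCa
Lin28b, chr10:45381022-45381051: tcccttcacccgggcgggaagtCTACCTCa
Igf2bp1, chr11:95961778-95961807: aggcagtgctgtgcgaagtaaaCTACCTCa
Igf2bp2, chr16:22059473-22059502: gagaaaaacacacaaataaaagCTACCTCa
Igf2bp3, chr6:49086787-49086816: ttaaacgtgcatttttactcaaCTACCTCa
Hmga1, chr17:27563270-27563299: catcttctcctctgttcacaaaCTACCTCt
Hmga2, chr10:120364224-120364251: ggggcgccgacattcaatttCTACCTCa

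**Figure D1:**
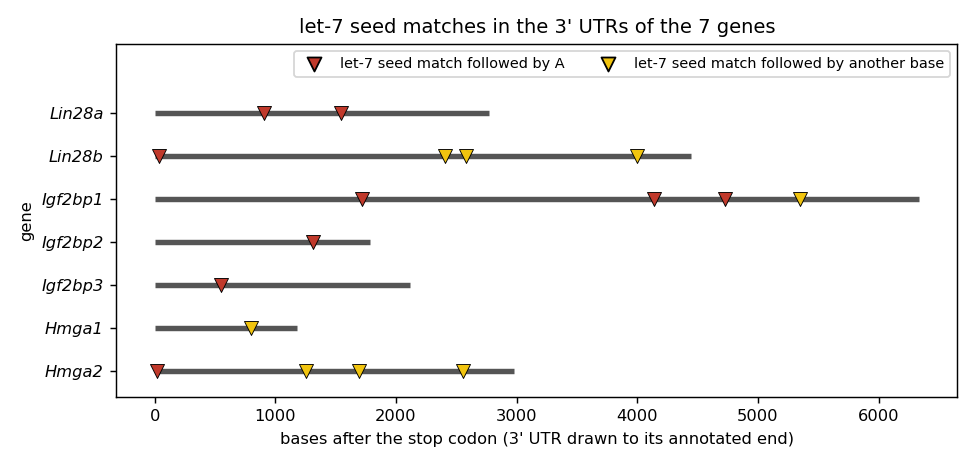
Positions of let-7 seed matches (triangles) along the annotated 3′ UTR of each gene (bars), in bases after the stop codon. Each gene holds at least 1 match, and Lin28b, Igf2bp1 and Hmga2 hold 4 each.

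The let-7 genes themselves could not be read from these libraries. The table holds 10 let-7 family rows, and all 10 were listed at 0 in every cell. The protocol extracted mRNA, and mature let-7 is a short RNA with no poly(A) tail.

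Values are FPKM, which divides fragments by transcript length and library size so that levels can be set beside each other between genes. The mRNA was amplified in repeated rounds, and how evenly whole transcripts were covered was not tested. Transcripts of the members run from 1681 (Hmga1) to 8378 bases (Igf2bp1), so comparisons between genes are rough. The 6 cells differed widely. For mouse 1168 the CTC summed to 727351 FPKM and the tumor cell to 615548, against 46973 to 236427 in the other 4 cells. As a measure of background, the 99th percentile over 1789 rows of olfactory and vomeronasal receptors, genes of sensory neurons in the nose, was taken in each cell and is called the receptor level. For mouse 1157 it lay at 0.885 FPKM (CTC) and 1.58 (tumor cell), for mouse 1168 at 0.167 and 1.52, and for mouse PDGF1 at 4.03 and 7.02. A gene under that level cannot be told from background. Markers of oligodendrocyte progenitors and glioma were above it for 12 of 12 genes (CTC) and 9 of 12 (tumor cell) of mouse 1168, for 4 and 0 of 12 of mouse 1157, and for 0 of 12 of both cells of mouse PDGF1. Only in mouse 1168 were most of these markers above background in both cells. Depth and read counts are unknown, and n is 1 cell of each kind per mouse.

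Of the 42 values (7 genes in 6 cells), 10 were above the receptor level, 28 were above 0 but not above it, and 4 were listed at 0. The CTC of mouse 1168 had 4 genes above it, Lin28b, Igf2bp2, Hmga1 and Hmga2, and the tumor cell of that mouse had 3, the same without Lin28b. The CTC of mouse 1157 had 1, Hmga1, and its tumor cell had 2, Igf2bp1 and Igf2bp2. No member was above it in either cell of mouse PDGF1. The summed FPKM of the 7 genes came to 26.2 (CTC) and 31.7 (tumor cell) for mouse 1168, to 5.00 and 7.07 for mouse 1157, and to 0.443 and 1.05 for mouse PDGF1.

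**Figure D2:**
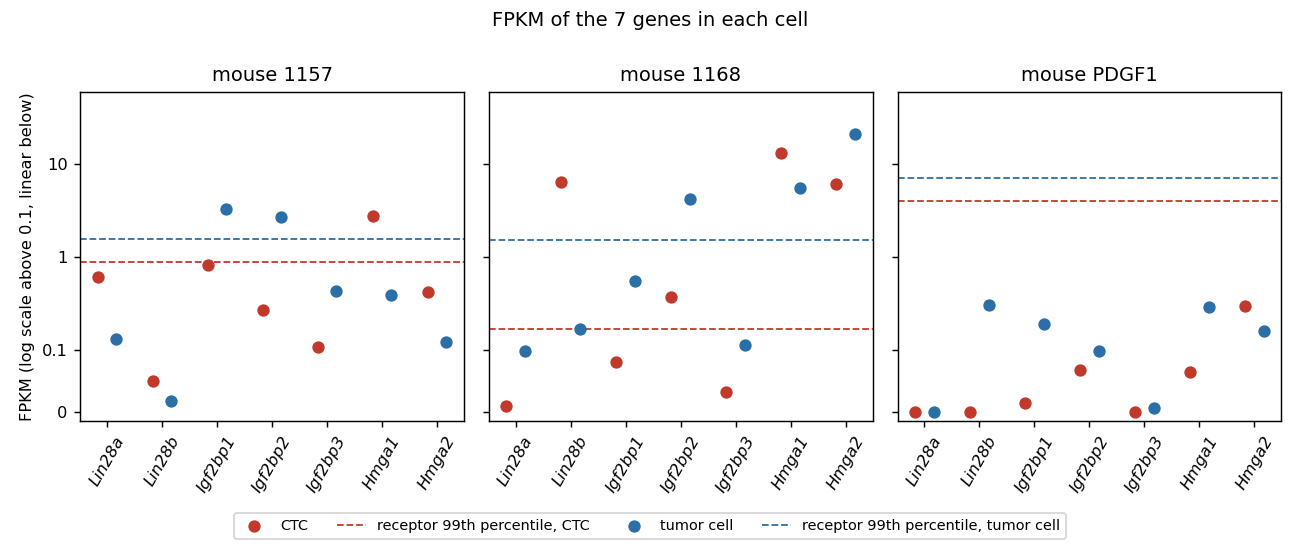
FPKM of the 7 genes in the CTC (red) and the tumor cell (blue) of each mouse, with dashed lines at the receptor level of each cell. Values above the line are in mice 1157 and 1168 only, and the highest is Hmga2, with 21.0 FPKM for the mouse 1168 tumor cell.

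Lin28b (chr10:45376620-45486395, minus strand) is the paralog known from many adult tumors. It had CTC values of 0.0488 FPKM (mouse 1157), 6.44 (mouse 1168) and 0 (PDGF1), and tumor cell values of 0.0164, 0.167 and 0.307 FPKM. In FPKM the CTC of mouse 1168 thus stood apart from the other 5 cells, in which Lin28b was under the receptor level. By rank and after rescaling over rows named like known genes it did not. For the tumor cell of mouse PDGF1, with its receptor level of 7.02 FPKM, Lin28b lay at percentile 79.2 of named protein-coding genes. Its rescaled value was 5.21 there and 2.12 in the CTC of mouse 1168. Within that CTC its level lay at percentile 74.8 of 18723 named protein-coding genes, close to that of Hmga2 in the same cell. On the log2(FPKM + 1) scale used for every difference here, CTC minus tumor cell, the difference was 2.67 in mouse 1168, a 38.6-fold ratio of FPKM whose tumor cell value is under the receptor level. Other pseudocounts and scalings gave 1.15 (pseudocount of 5) to 4.61 (pseudocount of 0.1). The groups overlapped, and the mean difference over the 3 mice was 0.78 ± 1.66 (SD, n = 3 mice), within the spread between mice. It turned to -0.18 without the CTC of mouse 1168, to -0.01 with quantile normalization and to -0.43 with rescaling over rows named like known genes.

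Lin28a (chr4:134003330-134018841, minus strand), known from embryonic stem cells, had CTC values of 0.614 FPKM (mouse 1157), 0.00952 (mouse 1168) and 0 (PDGF1), and tumor cell values of 0.129, 0.0979 and 0 FPKM. It was under the receptor level in all 6 cells. No Lin28a signal above background was therefore detectable beside the Lin28b of the CTC of mouse 1168.

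Igf2bp2 (chr16:22059009-22163299, minus strand) is the family member that stays active in some adult tissues. It had CTC values of 0.270 FPKM (mouse 1157), 0.373 (mouse 1168) and 0.0668 (PDGF1), and tumor cell values of 2.67, 4.22 and 0.0980 FPKM. It was lower in the CTC of mice 1157 and 1168 by 1.53 and 1.93 on the log2 scale. In mouse 1168 the ratio was 11.3-fold, while in mouse 1157 the CTC value was under the receptor level. Other pseudocounts and scalings gave -4.72 to -0.54 in mouse 1157 and -3.19 to -0.69 in mouse 1168. In mouse PDGF1 both cells were low, with a difference of -0.04. The groups overlapped, because the tumor cell of mouse PDGF1 lay below the CTCs of the other mice.

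Igf2bp1 (chr11:95957163-96005940, minus strand), which is mainly fetal, had CTC values of 0.817, 0.0807 and 0.0142 FPKM in the same order of mice, and tumor cell values of 3.31, 0.550 and 0.189 FPKM. Only the tumor cell of mouse 1157 was above the receptor level, and there Igf2bp1 was the highest of the 7 genes. The difference in mouse 1157 was -1.24, and -4.32 to -0.51 with other pseudocounts and scalings. Igf2bp3 (chr6:49085223-49214957, minus strand), the third member of the family, had CTC values of 0.106, 0.0308 and 0 FPKM in the same order of mice, and tumor cell values of 0.432, 0.113 and 0.00583 FPKM, under the receptor level in every cell.

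All 3 Igf2bp genes were thus lower in the CTC than in the tumor cell of the same mouse in 3 of 3 mice, though Igf2bp2 turned to higher in mouse PDGF1 with quantile normalization (0.38) and with the same rescaling (0.34), and Igf2bp3 in mouse 1168 with quantile normalization (0.03). Of named protein-coding genes, 17.0% were lower in the CTC in all 3 mice at any size. Most of these Igf2bp values lay under the receptor level, and those above it are Igf2bp2 in the tumor cell of mouse 1157 and both cells of mouse 1168, and Igf2bp1 in the tumor cell of mouse 1157. None of the 7 genes was higher in the CTC in all 3 mice, where 4.54% of named protein-coding genes and 3.49% of all rows above 0 in some cell were, while 12.5% of those rows were lower in all 3. No member had CTC values fully outside its tumor cell values, against 3.08% of named protein-coding genes fully below and 0.341% fully above.

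Hmga1 (chr17:27556497-27563674, plus strand), a chromatin protein of dividing cells, had CTC values of 2.73 FPKM (mouse 1157), 13.2 (mouse 1168) and 0.0642 (PDGF1), and tumor cell values of 0.387, 5.50 and 0.290 FPKM. The CTC was the higher cell in mice 1157 and 1168, with differences of 1.43 and 1.12. In mouse 1157 the tumor cell value was under the receptor level. The difference there was 0.52 with a pseudocount of 5, 2.54 with a pseudocount of 0.1 and 2.35 with quantile normalization. With rescaling, which multiplies that CTC by 1.66 and that tumor cell by 13.9, it was -0.21. In mouse 1168 the difference was 0.79 with a pseudocount of 5, 0.49 with quantile normalization and 0.60 with rescaling. In mouse PDGF1 both values were under the receptor level. The sources used here do not say how reads that match more than 1 gene were counted, so the Hmga1 values are uncertain to that extent.

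Hmga2 (chr10:120361275-120476469, minus strand) is the more strictly fetal member and a classic let-7 target. It had CTC values of 0.417 FPKM (mouse 1157), 6.06 (mouse 1168) and 0.298 (PDGF1), and tumor cell values of 0.122, 21.0 and 0.158 FPKM. Both cells of mouse 1168 were above the receptor level and the other 4 cells were under it. In mouse 1168 the CTC was lower by 1.64 on the log2 scale, a 3.47-fold lower FPKM, the opposite of Hmga1 and Lin28b in the same pair of cells. The tumor cell held the highest value of any member, at percentile 89.0 of named protein-coding genes. The mean difference of Hmga2 was -0.38 ± 1.10 (SD, n = 3 mice). Its sign was not stable: it was 1.04 without the tumor cell of mouse 1168, 0.05 without the CTC of mouse PDGF1, 0.25 without both cells of mouse 1168, 0.38 with quantile normalization and 0.02 with a pseudocount of 0.1.

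**Figure D3:**
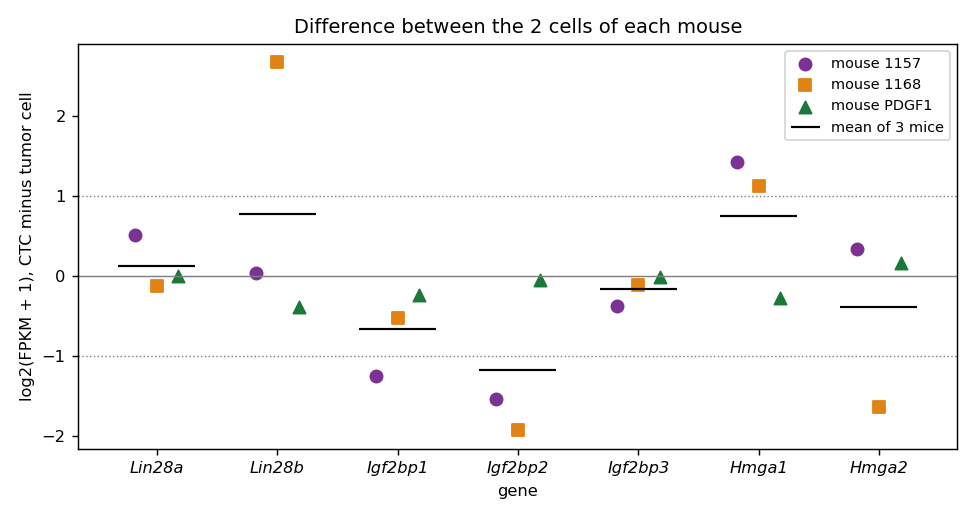
Difference in log2(FPKM + 1), CTC minus tumor cell, of the 7 genes in each mouse (symbols), with the mean of the 3 mice (black bars) and dotted lines at 1 and -1. Lin28b stands at 2.67 in mouse 1168 only, the 3 Igf2bp genes lie below 0 in each mouse (other scalings turn Igf2bp2 in mouse PDGF1 and Igf2bp3 in mouse 1168), and Hmga1 and Hmga2 part in mouse 1168.

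Within a mouse there is 1 cell of each kind and no replicate. Genes at 1 FPKM or more in either cell of the mouse were counted as measured, a filter that 3 of the 7 genes met for mouse 1157, 4 for mouse 1168 and 0 for PDGF1. Some of them met it through 1 cell alone and had to differ. In mouse 1157, 1 gene (Hmga1) was higher in the CTC by 1 or more (log2), where 29.0% of all measured genes were, and 2 (Igf2bp1 and Igf2bp2) were lower, where 37.1% of all measured genes were. In mouse 1168, 2 genes (Lin28b and Hmga1) were higher, with 22.7% of all measured genes, and 2 (Igf2bp2 and Hmga2) were lower, with 24.9%. Differences of this size were common among all genes, and the members were chosen with these values known, so nothing is read from the counts.

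**Figure D4:**
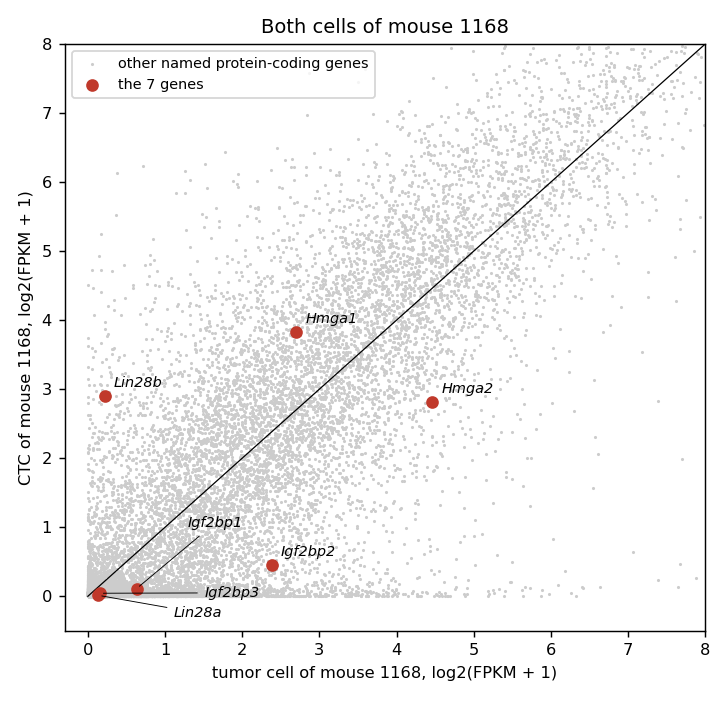
Levels in the CTC (vertical axis) and the tumor cell (horizontal axis) of mouse 1168 as log2(FPKM + 1), with the 7 genes in red, other named protein-coding genes in grey, a line of equal level and both axes ending at 8, so that the highest genes are not shown. Lin28b and Hmga1 lie above the line, and Hmga2 and Igf2bp2 below it.

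Over all 3 mice the fit across genes (limma, Benjamini-Hochberg adjustment) included 1 of the 7 genes, Hmga1, since the others were not at 1 FPKM or more in at least 3 cells. Its difference was 0.76 with an SE of 1.50. That mean was -0.19 without the CTC of mouse 1168, 1.68 without the CTC of mouse PDGF1, 1.52 without the tumor cell of mouse 1168, 0.40 and 0.35 without the tumor cells of mice 1157 and PDGF1, and -0.15 with rescaling. By limma, 0 of 4165 genes passed at an adjusted p under 0.05, a share of 0%, and 7 had an unadjusted p under 0.05. A block for the mouse gave 1 call by limma, 0.0240% of the fitted genes, which was no member, and 217 genes had an unadjusted p under 0.05. As the members were chosen with the contrast known, no p is given for them.

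Summed markers of some other cell types moved with Hmga2 and Igf2bp2 in mouse 1168. Of 14 microglia and macrophage markers, 6 (CTC) and 11 (tumor cell) were above the receptor level, with summed FPKM of 245 and 2544, and Aif1, Tmem119 and C1qa were at 0 in the CTC. Over the mice that sum ran from 2.23 to 245 in CTCs and from 12.9 to 2544 in tumor cells. Of 8 pericyte and fibroblast markers, 1 was above the receptor level in the CTC of mouse 1168 and 5 in its tumor cell, with sums of 2.73 and 81.6. Pdgfrb, Dcn, Lum and Acta2 were at 0 in the CTC. The marker above the level in the CTC, Rgs5, went the other way, at 2.58 (CTC) and 0.455 (tumor cell). The sum of this list ran from 0.283 to 2.73 in CTCs and from 1.08 to 81.6 in tumor cells. Of 10 leukocyte markers, 3 were above the level in that CTC and 4 in that tumor cell, with sums of 1.31 and 259, over ranges of 1.31 to 13.2 in CTCs and 0.864 to 259 in tumor cells, and Cd79a was at 0 in both cells. In mouse 1157, where Igf2bp1 and Igf2bp2 were higher in the tumor cell, pericyte and fibroblast markers summed to 1.06 (CTC) and 75.3 (tumor cell), of which the collagen gene Col1a1 made 74.3. The rest of that list was under the receptor level, with Col1a2, Rgs5, Pdgfrb and Tagln higher in the CTC and Dcn and Acta2 lower. Microglia and macrophage markers summed to 4.56 (CTC) and 12.9 (tumor cell) in that mouse. Leukocyte markers went the other way, at 13.2 and 7.75, with Laptm5 at 9.81 and 2.03. The part of these cells in the results was not tested. If a tumor cell sample held more than 1 cell, more cells of a type and more RNA per cell cannot be told apart.

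The progenitor and glioma markers, by contrast, summed for mouse 1168 to 596 (CTC) and 273 (tumor cell), in the direction of Lin28b and Hmga1. Of these markers Sox10 alone went the other way, at 6.54 (CTC) and 18.3 (tumor cell). Platelet markers were also higher in that CTC as a sum, at 72.2 (CTC) and 13.3 (tumor cell), with 2 of 7 above the receptor level in each cell. That sum rested on Itga2b, at 68.0 and 6.09. Gp1bb, the other marker above the level in both cells, was lower in the CTC, at 4.11 and 6.62. Ppbp, Gp9, Gp1ba and Treml1 were at 0 in that CTC, and the sum ran from 0.399 to 72.2 in CTCs and from 0.0762 to 13.3 in tumor cells. Neuron markers summed to 69.5 and 15.6, again with 2 of 6 above the level in each cell. These were Map2, at 64.4 and 12.5, and Gad1, at 4.93 and 1.73. Snap25, Syt1, Rbfox3 and Slc17a7 were under the level in both cells and lower in the CTC, so the sum rested on Map2. That sum ran from 2.39 to 69.5 in CTCs and from 2.55 to 15.6 in tumor cells. The part of these cells was not tested either.

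The 2 members that reached 10 FPKM in some cell, Hmga1 and Hmga2, were set beside all other fitted named protein-coding genes by Pearson's r of log2(FPKM + 1) over the 6 cells. For Hmga1 the nearest were Dnlz, Cdk5rap1 and Aldh16a1, each with r = 0.998 or 0.997. For Hmga2 they were S100a4 and S100a6, calcium-binding proteins, with r = 0.995 and 0.990, and Dclk1, a microtubule-linked kinase, with 0.990. S100a4 had CTC values of 1.40 FPKM (mouse 1157), 176 (mouse 1168) and 1.29 (PDGF1), and tumor cell values of 0.939, 994 and 1.04 FPKM, again highest in the tumor cell of mouse 1168. Since both cells of mouse 1168 were high for most genes, 22.0% of fitted genes reached an r of 0.9 with Hmga1 and 23.9% with Hmga2, so these r values are descriptions only.

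Genes that act with the 3 families were read from 7 lists of 123 genes in all, of which 51 met the filter of the fit. None passed in either direction (limma, smallest adjusted p = 0.9999), where the share of all genes was 0%. The median difference of all fitted genes was -0.06.

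Of the let-7 processing genes 2 of 15 were fitted, both with a negative difference (median -0.65). Drosha, the nuclear enzyme that cuts microRNA precursors out of their transcripts, had CTC values of 0.258 FPKM (mouse 1157), 22.2 (mouse 1168) and 0.149 (PDGF1), and tumor cell values of 0.353, 29.0 and 0.0962 FPKM. For mouse 1168, Prkra, a partner of the precursor-cutting enzyme Dicer, was at 40.8 FPKM (CTC) and 18.2 (tumor cell), and the Argonaute gene Ago1 at 7.42 and 3.92. Trim25, a ubiquitin ligase that helps Lin28a, was at 1.25 and 8.41. In that mouse 1 of 12 measured genes lay at least 1 higher in the CTC and 4 lower (background 22.7% and 24.9%). Mouse 1157 gave 0 and 0 of 1 (29.0% and 37.1%), and PDGF1 gave 1 and 3 of 4 (23.7% and 59.9%).

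Other known let-7 target genes had 3 positive and 4 negative differences among 7 fitted of 23 (median -0.09). In mouse 1168 alone, 8 of 16 measured lay at least 1 higher in the CTC and 2 lower (22.7% and 24.9% of all genes), with a median of 1.09 where that of all measured genes was 0.04. The RAS genes Nras and Hras were at 87.0 and 243 FPKM in that CTC and at 29.0 and 88.9 in the tumor cell. Ccnd1, the G1 cyclin, was at 244 and 25.1, and the ubiquitin-conjugating gene Cdc34 at 176 and 104. Mouse 1157 gave 2 higher and 3 lower of 9 measured (29.0% and 37.1% of all genes), with Hras at 220 FPKM (CTC) and 0.858 (tumor cell) and Ccnd1 at 38.7 and 0.144. Mouse PDGF1 gave 0 higher and 2 lower of 3 (23.7% and 59.9%). Other targets thus did not share 1 direction over the mice.

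Targets and RNA-protein partners of the Igf2bp family had 3 positive and 7 negative differences among 10 fitted of 20 (median -0.45). Igf2 itself, the mRNA the family is named for, was at most 0.669 FPKM in any cell, and H19, the imprinted RNA beside it, at most 0.701. The partner genes Ybx1, Pabpc1 and Hnrnpk were at 436, 223 and 60.5 FPKM in the CTC of mouse 1168 and at 260, 244 and 59.5 in its tumor cell. Actb, a classic cargo of Igf2bp1, was at 174 FPKM (CTC) and 8.58 (tumor cell) for mouse 1157, and at 1293 and 1480 for mouse 1168. In mouse 1168, 2 of 18 measured were higher by at least 1 and 4 lower, against 22.7% and 24.9% of all genes. Mouse 1157 gave 1 higher and 2 lower of 5 (29.0% and 37.1%), and PDGF1 gave 1 and 4 of 8 (23.7% and 59.9%).

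Genes of the mRNA mark m6A, which Igf2bp proteins can read, had 3 positive and 3 negative differences among 6 fitted of 15 in the table (median 0.16). Mettl3, which writes the mark, had CTC values of 14.6 FPKM (mouse 1157), 50.3 (mouse 1168) and 19.3 (PDGF1), and tumor cell values of 36.2, 17.8 and 0.203 FPKM. It was above the receptor level in all cells but the tumor cell of mouse PDGF1, and its direction in mouse 1157 was opposite to that in the others. By at least 1, mouse 1157 had 1 higher and 2 lower of 4 measured (29.0% and 37.1% of all genes), mouse 1168 had 2 and 2 of 14 (22.7% and 24.9%), and PDGF1 had 3 and 0 of 3 (23.7% and 59.9%). The readers Ythdf2, Hnrnpa2b1 and Hnrnpc were at 19.2, 124 and 27.3 FPKM in the CTC of mouse 1168 and at 19.8, 89.3 and 39.8 in its tumor cell.

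Other high-mobility-group chromatin genes had 7 positive and 4 negative differences among 11 fitted of 13 (median 0.18). In mouse 1168, 4 of 12 measured lay at least 1 higher in the CTC and 0 lower (22.7% and 24.9% of all genes), on the side of Hmga1. Hmgb3 was at 125 FPKM (CTC) and 17.9 (tumor cell), Hmgn2 at 23.4 and 3.85, Hmgn1 at 623 and 313, and Hmgn3 at 115 and 75.2. In mouse PDGF1 the list went the other way, with 0 of 6 higher and 3 lower (23.7% and 59.9%) and a median of -1.07. In mouse 1157, 3 of 9 were higher and 2 lower (29.0% and 37.1%), with Hmgb3 at 412 FPKM in the CTC against 1.24 and Hmgn2 at 208 against 1.32.

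Fetal, imprinted and pluripotency genes had 2 positive and 1 negative difference among 3 fitted of 21 (median 0.03). Meg3, an imprinted long RNA, was at 35.1 FPKM (CTC) and 2.50 (tumor cell) for mouse 1168, while Peg3, an imprinted zinc finger gene, was at 1.03 and 5.07 and Klf4 at 0.530 and 2.70. Sox2 was at 129 and 64.8 there. Mouse 1157 gave 1 higher and 1 lower of 4 measured (29.0% and 37.1%), mouse 1168 gave 2 and 3 of 6 (22.7% and 24.9%), and PDGF1 gave 1 and 2 of 4 (23.7% and 59.9%). Pou5f1 and Nanog, which mark pluripotent cells, were at most 0.564 and 0.955 FPKM in any cell.

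RNA binders with the cold-shock domain of Lin28 or the KH domain of the Igf2bp family had 9 positive and 6 negative differences among 15 fitted of 23 (median 0.08). Pcbp1 and Qk were at 106 and 82.5 FPKM in the CTC of mouse 1168 and at 108 and 68.2 in its tumor cell, and 4 of 21 measured were higher by at least 1 and 2 lower (22.7% and 24.9% of all genes). Mouse 1157 gave 5 and 5 of 14 (29.0% and 37.1%), and PDGF1 gave 0 and 6 of 7 (23.7% and 59.9%).

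**Figure D5:**
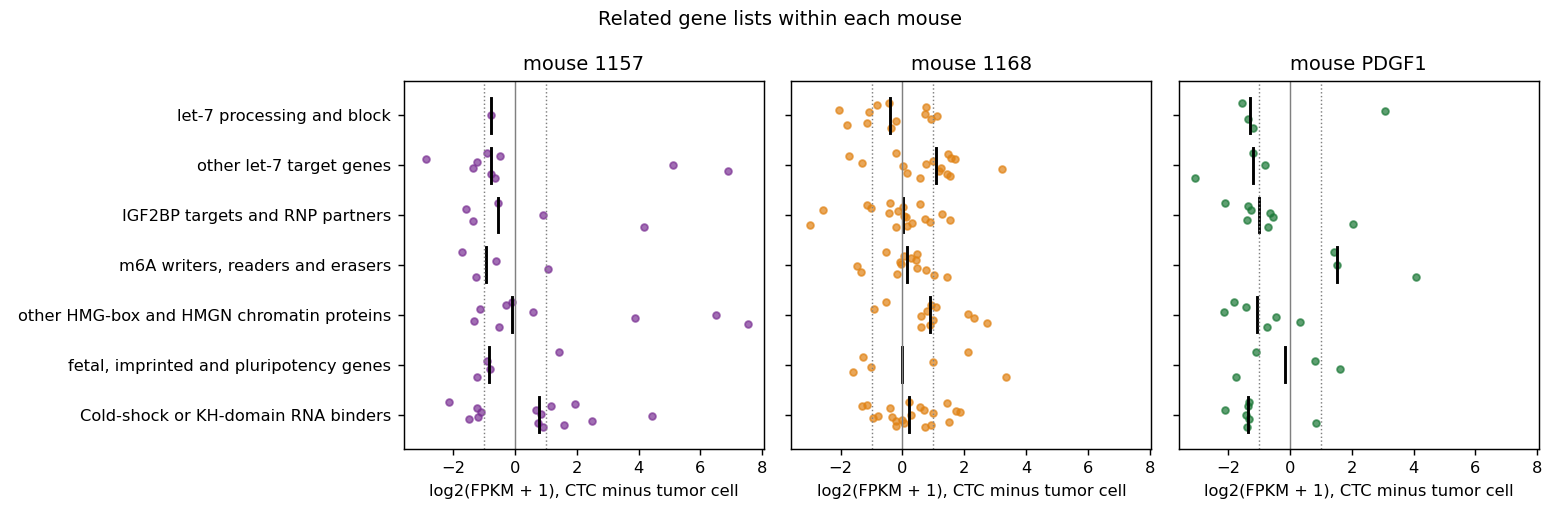
Difference in log2(FPKM + 1), CTC minus tumor cell, of each listed gene at 1 FPKM or more in either cell (points), with the median (black bars), for the 7 lists in each mouse. In mouse 1168 the other let-7 targets have a median of 1.09, and in mouse 1157 most of that list lies below 0 with Hras and Ccnd1 far above.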

How the data were processed

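The deposited table gives FPKM as the authors made it, per its name, and STAR 2.4.2a, Cufflinks 2.2.1 and GRCm38 are the tools and build listed, with no role, in the submitters' processing notes. Per the labels' protocols, mRNA of each cell was linearly amplified in repeated rounds and made into stranded TruSeq libraries. Read counts are not used here and the depth is unknown. Of 45038 rows, those whose name was a date or occurred more than once were left out.

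Differences are CTC minus tumor cell of log2(FPKM + 1), which understates changes of low genes. limma 3.58.1 (R 4.3.3, variance trend, two-sided, threshold 0.05) was run on genes that reached 1 FPKM in at least 3 cells. It was also run on simulated data, where recovery was required only at a spread smaller than that of these cells. The power at the spread of these cells is therefore not given here. Since 1 cell per kind came from each mouse, the mouse pairs the cells. After group means were removed they correlated at 0.178, 0.689 and 0.428 in mice 1157, 1168 and PDGF1. Cells of different mice correlated at -0.622 to 0.422. The highest of these, between the CTC of PDGF1 and the tumor cell of mouse 1157, was close to the value of the PDGF1 pair. The annotation was GENCODE M21; let-7 sequences came from RefSeq. Some results are not reported here. Python 3.11.15 with pandas 2.3.3, numpy 2.4.6 and matplotlib 3.10.9 did the rest.

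The members, lists and tests were chosen with earlier results of these data known. Named genes were all members, up to 4 genes per list by mean FPKM, and the 3 nearest genes by Pearson's r of each member at 10 FPKM or more; Igf2, H19, Pou5f1, Nanog and the single marker genes were named after their values were seen. Alternatives were other pseudocounts, no filter, quantile normalization, rescaling each cell to a common sum over rows named like known genes, the mouse as a block, and leaving out cells or mice.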

Additional observations from a re-analysis of the deposited data

How the results depend on the processing

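With the mouse as a block (replicate block), limma called 1 gene in place of 0, Snora2b, which is no member; every other setting, leaving out single cells included (0 to 0), called 0. Counts of members past 1 on the log2 scale moved as follows. A pseudocount of 5 gave 0 higher and 0 lower in the CTC of mouse 1157 (from 1 and 2) and 1 and 1 in mouse 1168 (from 2 and 2). Quantile normalization gave 1 higher and 1 lower in mouse 1168. Rescaling over rows named like known genes gave 0 higher in mouse 1157, 1 higher in mouse 1168, and 1 higher and 2 lower in mouse PDGF1 (from 0 and 0); there Hmga1 in mouse 1157 turned to -0.21. That rescaling multiplies the cells of mouse PDGF1 by 35.4 (CTC) and 17.0 (tumor cell), and so also its background, and shifts the median of the fitted genes to -0.99. Members higher in the CTC in every mouse numbered 2 without mouse PDGF1 and 1 without mouse 1168, in place of 0, and those lower in every mouse stayed at 3 in number without any 1 mouse. These counts without a mouse, and the limma fit without mouse PDGF1, were chosen after seeing the data. Of 161 single differences under other settings, 20 changed sign, 1 of them among differences of at least 1. Unknown depth, amplification and 3 cells per kind limit all values, above all in mice 1157 and PDGF1.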
